A study of Mus musculus with 3 samples.

Results

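Telomerase and shelterin, the machinery that builds and protects chromosome ends, were represented by 10 genes in J1 mouse embryonic stem cells: Tert and Dkc1 of telomerase, Terf1, Terf2, Tinf2, Acd, Pot1a and Pot1b of shelterin, and the associated factors Rtel1 and Rif1. The genes were chosen by name and function, with earlier results of these data known. Their probes were found by matching the RefSeq accession given for each probe to a gene symbol. The 10 genes were read by 13 probes and 22 spots on each array, out of 20660 genes matched by 27235 of the 55681 probes (48.9%). J1 is a cell line of strain 129S4/SvJae derived from the inner cell mass, and it was gelatin adapted and grown without feeders in Knockout DMEM with Knockout Serum Replacement and 1000 U/mL LIF. All cells were treated with 1 µM PD0325901, an inhibitor of the kinase MEK upstream of ERK, for 24 h. The 3 samples formed 1 group, replicates 1, 2 and 3, which the study's methods describe as independent experiments. Total RNA was labelled with Cy3 and hybridised to 1 Agilent array per sample. Cells without the inhibitor were not analysed here, so every value describes the treated cells and no effect of the inhibitor was estimated.

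Telomerase is a reverse transcriptase that adds TTAGGG repeats to chromosome ends by copying an RNA template. Shelterin coats those repeats, hides the end from DNA damage signalling, and controls the access of telomerase. Embryonic stem cells are known for active telomerase, which most differentiated cells lack.

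The processed signal is the spot intensity after background subtraction by the scanning software, in arbitrary units. The level is log2 of that signal minus the array's 75th percentile over all spots that were not controls, so a level of 0 is a spot at that percentile. A probe was called detected where at least 50% of its spots carried the software's flag for signals well above background. Intensity depends on the probe's own sequence as well as on the RNA, so levels of different probes were not read as RNA amounts. Levels were ordered to pick the probe that represented a gene and to split detected genes by brightness.

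Transcripts of all 10 genes were detected. Of the 13 probes, 13 were detected on all 3 arrays, and none of their spots was saturated. Over all named genes, 72.7% were detected on every array by the probe that represented the gene, the one with the highest mean level. The mean level lay above the 75th percentile for 8 of the 10 genes, whose signals ran from 1933 to 8991, and below it for Tert and Pot1b. As a check of the label, 7 of 7 embryonic stem cell markers were detected. Of these, Pou5f1 had the largest SD of the level over the 3 arrays, 0.42 log2 units. The 95th percentile of that SD over all detected named genes was 0.29. Of 5 fibroblast markers, 2 (Col1a2 and Thy1) were detected, while Col3a1, Lum and Postn were not.

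The arrays shared 1 slide and 1 scan, and their 75th percentile signals were 619, 578 and 594. On replicate 2, 148 of 187 non-uniform spots fell in 6 of 48 blocks of the array, which hold 12.6% of the spots. The 6 blocks were marked because each held at least 10 such spots, so this share follows in part from the choice. Such spots were not compared between the arrays. Of the 22 spots for the 10 genes, 3 lay in these blocks, all of them spots of Pot1b. The 308 negative control spots had median signals of 2.42, 2.75 and 2.48 and 95th percentiles of 2.74, 12.7 and 2.82 on replicates 1, 2 and 3.

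**Figure D1:**
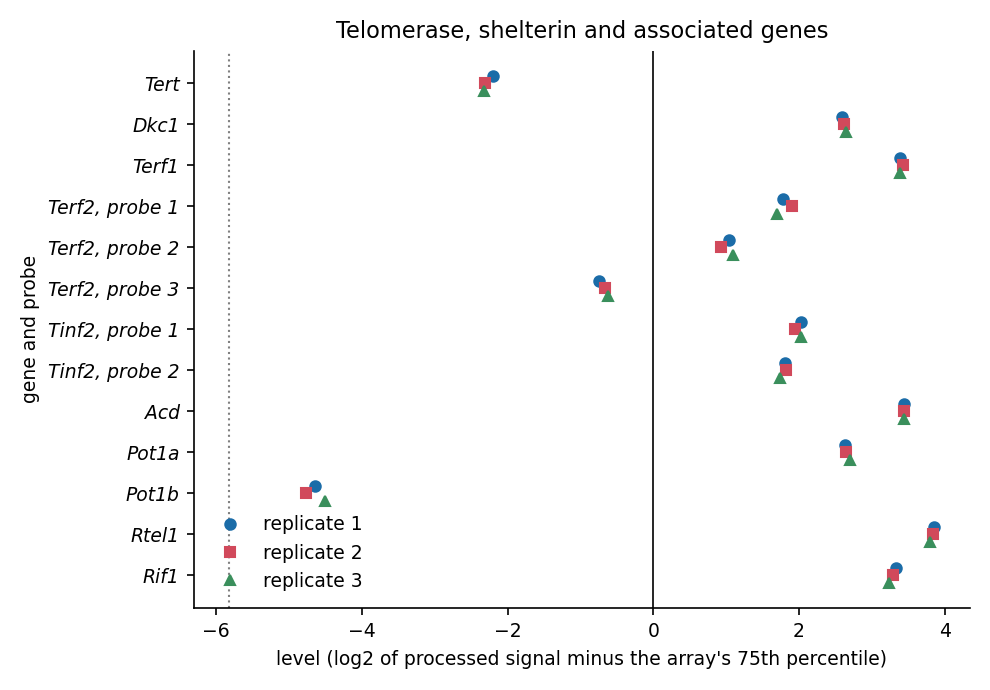
Level of each of the 13 probes for the 10 genes (vertical axis) on each of the 3 arrays (symbols). The horizontal axis is log2 of processed signal minus the array's 75th percentile (solid line at 0), and the dotted line is the mean over arrays of the level of the lowest signal well above background (from −5.94 to −5.66 on single arrays). Tert and Pot1b lie below the 75th percentile on all arrays, the third Terf2 probe does too, and the symbols of 1 probe lie close together.

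Tert encodes the catalytic subunit of telomerase. Its single probe gave signals of 134, 116 and 118 on replicates 1, 2 and 3. The mean was 123 ± 9.85 (SD, n = 3) and the level −2.28 ± 0.07. Replicate 1 was the highest, and the highest and lowest levels were 0.12 log2 units apart. The signal was 55.5, 42.2 and 47.7 times the median negative control on the same arrays. Of the 308 negative control spots, 0, 1 and 1 reached the Tert signal on replicates 1, 2 and 3. At most 1 control spot on an array was therefore as bright as Tert, although Tert lay below the 75th percentile of all spots.

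Dkc1 encodes dyskerin, the pseudouridine synthase that binds and stabilises the telomerase RNA. Its probe gave 3729, 3557 and 3720 (mean 3669 ± 96.8, level 2.62 ± 0.03), a coefficient of variation of 2.64% between the unscaled signals. The highest and lowest levels were 0.055 log2 units apart.

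Terc, the RNA template of telomerase, was also detected, at signals of 56.2, 63.4 and 69.8 and a level of −3.25 ± 0.19. Its SD was the largest among the 11 genes for assembly of the telomerase particle. Mature Terc has no poly(A) tail, and the labelling kit primes on such tails. The Terc spot lay in a marked block of replicate 2. The part of either in the signal was not tested.

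The other assembly genes were Nop10, Nhp2 and Gar1, which complete the protein core with dyskerin, Naf1 and Shq1, which assemble it, the ATPases Ruvbl1 and Ruvbl2, Wrap53, which brings telomerase to Cajal bodies, Pinx1, a telomerase inhibitor, and Parn, which trims the RNA. Of the 11 genes including Terc, 11 were detected on every array, their median SD was 0.054, and their probes' mean signals ran from 63.2 to 62538.

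In shelterin, Terf1 (TRF1) and Terf2 (TRF2) bind the duplex repeats directly. Terf1 gave 6451, 6200 and 6223 (mean 6291 ± 139, level 3.40 ± 0.02). The coefficient of variation of its unscaled signals was 2.21%, the lowest of the 10 genes. Terf2 was read by 3 probes, the first from 1 transcript record of the gene and the others from another. Its first probe gave 2120, 2155 and 1933 (level 1.79 ± 0.10). Its second gave 1274, 1098 and 1265 (level 1.02 ± 0.08), and the last one 368, 365 and 386 (level −0.68 ± 0.07).

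The levels of the Terf2 probes, which are scaled by array, did not place the arrays in 1 order. Replicate 2 had the highest level on the first probe, 0.12 above replicate 1, and the lowest on the second, at −0.11 from replicate 1. On the third probe the levels were −0.75, −0.66 and −0.62, with replicate 3 the highest and replicate 1 the lowest. The 3 probes spanned both sides of the 75th percentile, so the level given for Terf2 depended on the probe taken, while its detection did not.

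Tinf2 (TIN2) bridges TRF1, TRF2 and the rest of the complex. Its first probe gave 2525, 2218 and 2419 (level 2.00 ± 0.05). Its second gave 2164, 2038 and 1982 (level 1.79 ± 0.04). On the scaled levels replicate 2 was the lowest array on the first probe (2.03, 1.94 and 2.02) and the highest on the second (1.81, 1.82 and 1.74). As for Terf2, no array had the highest level on every probe of the gene. For Tinf2 this rested on 0.01 log2 units between replicates 2 and 1 on the second probe. Before scaling, replicate 1 had the highest signal on both probes.

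Acd (TPP1) carries POT1 into shelterin and recruits telomerase to the end. Its signals of 6750, 6274 and 6462 followed the 75th percentiles of the arrays so closely that the levels were 3.45, 3.44 and 3.44. The SD of 0.0029 was the smallest of the 10 genes, against a 5th percentile of 0.0176 over all detected named genes. It rests on 1 spot per array and on the scaling. With arrays scaled by their medians, the SD of Acd was 0.052, above the 0.036 of Terf1.

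Mice carry a pair of POT1 genes, Pot1a and Pot1b, which bind the single-stranded overhang. Pot1a is known mainly for keeping the ATR checkpoint silent at telomeres and Pot1b for limiting trimming of the C-rich strand. Their promoter sequences are shown because these paralogs are transcribed from separate starts. Each run is the 250 bases before the RefSeq transcription start in GRCm38.p6, on the gene's strand, and is the reference sequence rather than that of J1 cells. Pot1a lies at chr6:25809219-25809468 and Pot1b at chr17:55712637-55712886, both on the minus strand; a second Pot1b start in RefSeq lies 12 bases away. Capitals mark matches on either strand to GGGCGG, the GC box bound by Sp1, CCGGAA, an ETS core, and CACGTG, an E-box bound by Myc.
Pot1a: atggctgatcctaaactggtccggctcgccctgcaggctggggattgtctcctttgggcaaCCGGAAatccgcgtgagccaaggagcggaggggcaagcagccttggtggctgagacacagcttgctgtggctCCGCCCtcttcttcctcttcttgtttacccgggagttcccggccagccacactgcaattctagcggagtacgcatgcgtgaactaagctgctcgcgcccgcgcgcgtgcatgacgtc
Pot1b: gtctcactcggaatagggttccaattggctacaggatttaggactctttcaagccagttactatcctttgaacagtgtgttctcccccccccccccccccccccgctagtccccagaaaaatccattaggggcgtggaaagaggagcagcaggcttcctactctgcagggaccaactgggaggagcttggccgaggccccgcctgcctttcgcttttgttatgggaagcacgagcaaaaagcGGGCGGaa

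The Pot1a window held 61.6% G and C, 19 CpG dinucleotides, 1 GGGCGG match and 1 CCGGAA match. The Pot1b window held 56.8% G and C, 9 CpG, 1 GGGCGG match and no CCGGAA match. Neither held CACGTG, and no matches overlapped. RefSeq windows were found for 8 of the 10 genes (not for Terf1 and Rif1), with 46.8 to 61.6% G and C and 5 to 20 CpG, against medians of 52.4% and 6 over all 32841 windows. GGGCGG was found in 4 of the 8 and in 32.7% of all windows, CCGGAA in 4 of the 8 and in 12.0%, and CACGTG in 0 of the 8 and in 6.02%. These matches describe letters, not binding.

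Pot1a gave 3821, 3607 and 3863 (mean 3764 ± 138, level 2.66 ± 0.04). The levels were 2.63, 2.64 and 2.70.

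Pot1b was near the lower end of what the arrays could read. The mean signals over its spots were 25.0, 21.5 and 26.7 (mean 24.4 ± 2.65, level −4.64 ± 0.14). They were 10.3, 7.80 and 10.8 times the median negative control, and 2.47, 1.88 and 2.60 times the lowest signal flagged well above background. Its SD of 0.14 was the largest of the 10 genes.

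Pot1b was the only one of the 10 genes with a probe printed in 10 spots, which lets array differences be set against spot error. All 10 spots were well above background on every array. On replicate 1, 2 spots carried an outlier flag and 8 were used, running from 19.0 to 29.3 with a median of 25.1. On replicate 2 the 10 spots ran from 16.1 to 28.1 with a median of 21.5. On replicate 3 they ran from 19.8 to 37.0 with a median of 26.0. The ranges of the 3 arrays overlapped in part, with the lowest spots on replicate 2 and the highest on replicate 3.

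**Figure D2:**
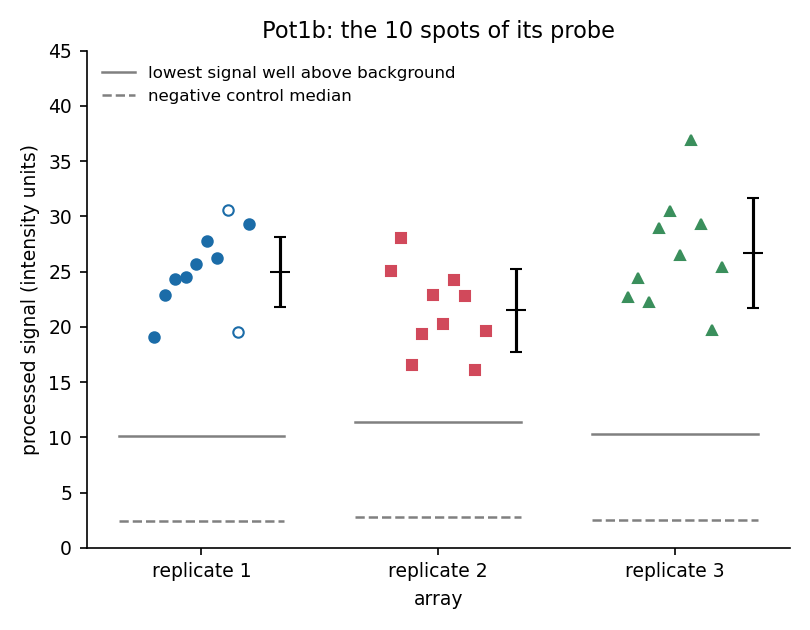
Processed signal (vertical axis, intensity units, from 0) of each Pot1b spot on each array (horizontal axis), with outlier-flagged spots open. Black marks give the mean ± SD over the spots used, solid grey lines the lowest signal well above background and dashed lines the median negative control. All Pot1b spots lie above both lines, and their ranges overlap in part between arrays.

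In limma's moderated F test over 284 detected 10-spot probes, with spots as technical repeats, Pot1b did not pass for a difference between the arrays (adjusted p = 0.112), while 36.6% of all these probes did. The Pot1b spots were more scattered than those of most tested probes, with SDs of 0.19, 0.26 and 0.26 log2 units on the 3 arrays against a median of 0.077. Its differences between arrays were also larger than the medians over the 284 probes, which were 0.067, 0.037 and 0.065 for replicate 2 against 1, 3 against 1 and 3 against 2. Of the single pairs, replicate 3 lay above replicate 2 by 0.27 log2 units (SE 0.10, limma adjusted p = 0.0475). In this pair 30.6% of the probes passed. Each pair was adjusted over the probes and not over the 3 pairs. With replicate 1 left out of the fit, the same pair gave a limma adjusted p of 0.070, with 76 of the 284 probes passing. Replicate 2 against replicate 1 gave −0.13 (SE 0.11, limma adjusted p = 0.399, 30.6% of probes passing). Replicate 3 against replicate 1 gave 0.14 (SE 0.11, limma adjusted p = 0.541, 7.39% passing). Scaling by each array's median in place of the 75th percentile brought the F test to an adjusted p of 0.0136 in limma, with 159 of the 284 probes passing, so this call depended on the scaling. These tests compare the hybridised samples, not conditions.

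The array with the lowest Pot1b mean, replicate 2, was also the one whose negative controls reached highest. There 15 of the 308 negative control spots lay at or above the lowest Pot1b spot, against 2 on replicate 1 and 2 on replicate 3. Without the 3 Pot1b spots in marked blocks, replicate 3 lay above replicate 2 by 0.34 (SE 0.11, limma adjusted p = 0.0272), and the F test gave an adjusted p of 0.0598.

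Terf2ip (RAP1), the TRF2 partner that completes shelterin, was detected by both of its probes. The first gave 791, 816 and 777 (level 0.41 ± 0.08) and the second 211, 233 and 189 (level −1.50 ± 0.18). Replicate 2 had the highest level on both, while the lowest was on replicate 1 for the first probe and on replicate 3 for the second. With Terf2ip, the nuclease Dclre1b (Apollo) and the tankyrases Tnks and Tnks2, which modify TRF1, 4 of 4 shelterin partners were detected. Dclre1b gave 34.6, 35.8 and 35.6 from 1 spot, near the lower end of what the arrays could read. Among the probes that represented these genes, that of Tnks had the largest SD, 0.12, at signals of 412, 377 and 453. The second Terf2ip probe had a larger SD. The Tnks spot lay in a marked block.

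Rtel1 is a helicase that opens telomere loops for replication. It gave 8991, 8250 and 8258 (mean 8500 ± 425, level 3.83 ± 0.03). Rif1, first known as a telomere factor in yeast, mainly controls replication timing and break repair in mammals. It gave 6232, 5657 and 5576 (mean 5822 ± 358, level 3.28 ± 0.05). On the scaled levels both genes were highest on replicate 1 and lowest on replicate 3, at 3.86, 3.84 and 3.80 for Rtel1 and 3.33, 3.29 and 3.23 for Rif1.

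The SD of the levels of the 10 genes over the 3 arrays had a median of 0.044 log2 units (from 0.0029 to 0.14), against 0.073 over all detected named genes. Leaving out 1 array moved both values, to 0.035 against 0.066 without replicate 1, 0.049 against 0.050 without replicate 2 and 0.029 against 0.064 without replicate 3. The gap to all genes was thus nearly gone without replicate 2. Brightness moved with this spread: with detected genes split into 4 equal bins by level, 5 of the 10 genes fell in the brightest bin, where the median SD was 0.054, 3 in the next (0.059), none in the one after (0.076) and 2, Tert and Pot1b, in the dimmest (0.14). The largest range of levels was 0.27 log2 units, for Pot1b. None of the 10 genes had levels over 1 log2 unit apart, and at a share of 0.987% over all detected named genes such a count does not set the 10 apart. For the 9 genes represented by a single spot, no pair of arrays differed by more than the software's combined error for the signals, about 10% per spot. The same held for 71.6% of the 14730 detected named genes with a single spot. This error covers the measurement of a spot and not the difference between cultures.

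**Figure D3:**
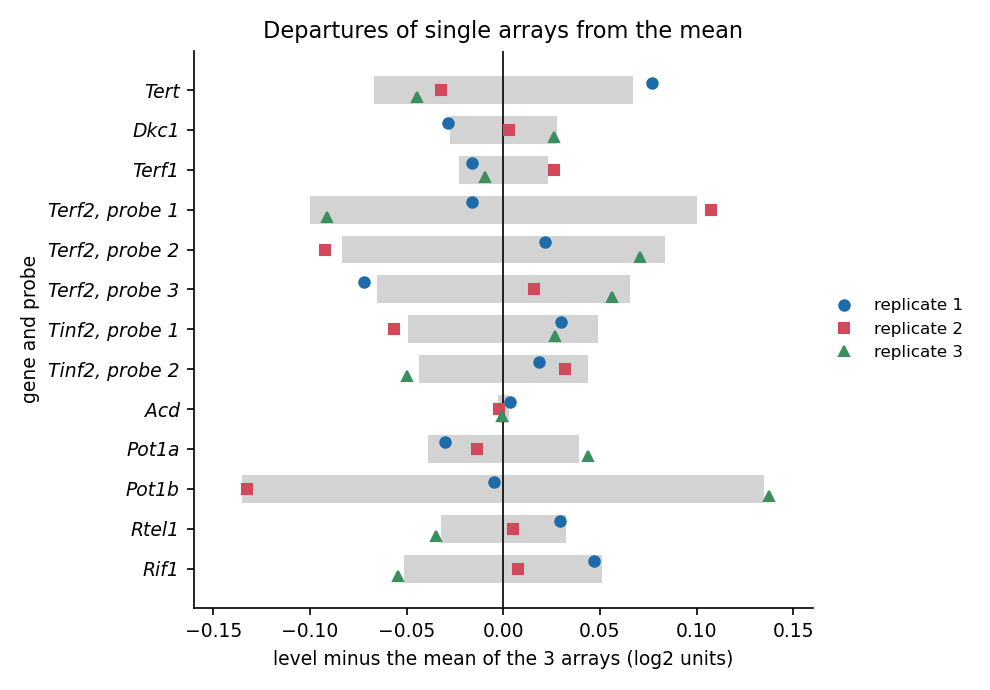
Level of each probe on each array minus that probe's mean over the 3 arrays (horizontal axis, log2 units), with grey bars at ± 1 SD. Pot1b has the widest bar and Acd the narrowest, and the order of the symbols differs between probes of Terf2 and of Tinf2.

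The array farthest from the others differed from gene to gene. Replicate 2 lay farthest from the median array for 3 of them, replicate 1 for 3 and replicate 3 for 4. Replicate 2 did so for 42.4% of all detected named genes. Its count among the 10 moved with the processing, to 5 with arrays scaled by their medians and to 1 with the mean of all probes of a gene. Of the 10 genes, 5 had their highest level on replicate 1, 2 on replicate 2 and 3 on replicate 3. Over all detected named genes the shares were 26.4%, 45.1% and 28.5%.

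Beyond telomerase and shelterin, 3 lists of genes acting at chromosome ends were read. All 3 subunits of the CST complex, which directs fill-in of the C-rich strand, were detected (Ctc1, Stn1 and Ten1). Ten1 had the largest SD of them, 0.052, at 440, 395 and 437. Of 12 genes of telomere replication and repair, 12 were detected, among them the helicases Blm and Wrn, the nucleases Fen1 and Dna2, the chromatin factors Atrx and Daxx, the MRN complex of Mre11a, Rad50 and Nbn, and the kinases Atm and Atr. Among the probes that represented these genes, that of Nbn had the largest SD, 0.16, at 513, 384 and 435. Second probes of Dna2 and Atrx had larger SDs, 0.27 and 0.18. None of the arrays read a second probe of Wrn well above background (2.55, 2.91 and 2.59), whereas the first gave 184, 156 and 155.

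Atm, the kinase that TRF2 holds inactive at chromosome ends, also has a 10-spot probe. Its spot means were 242, 223 and 238, and 1 of its 10 spots lay in a marked block. The adjusted p in limma's F test was 0.315, with 104 of the 284 probes passing. With arrays scaled by their medians it was 1.45e-04, with 159 of the 284 passing. The other Atm probe, which represented the gene and had 1 spot, gave 1061, 845 and 1051 (SD 0.15).

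Zscan4 and Tcstv genes mark a passing state of embryonic stem cells that resembles the embryo at the 2-cell stage, and Zscan4 is known for lengthening telomeres by recombination. Of 8 listed genes, 5 were matched to probes (not Zscan4b, Zscan4d and Zscan4e), and 5 of 5 were detected. Among the probes that represented these genes, that of Tcstv3 had the largest SD, 0.12, at 125, 127 and 111 (level −2.31). Its spot lay in a marked block. A further probe of Zscan4c had a larger SD, 0.14. The Zscan4 copies are near-identical, so their probes may read each other's RNA. Bulk RNA cannot tell few cells at a high level from many at a low one.

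**Figure D4:**
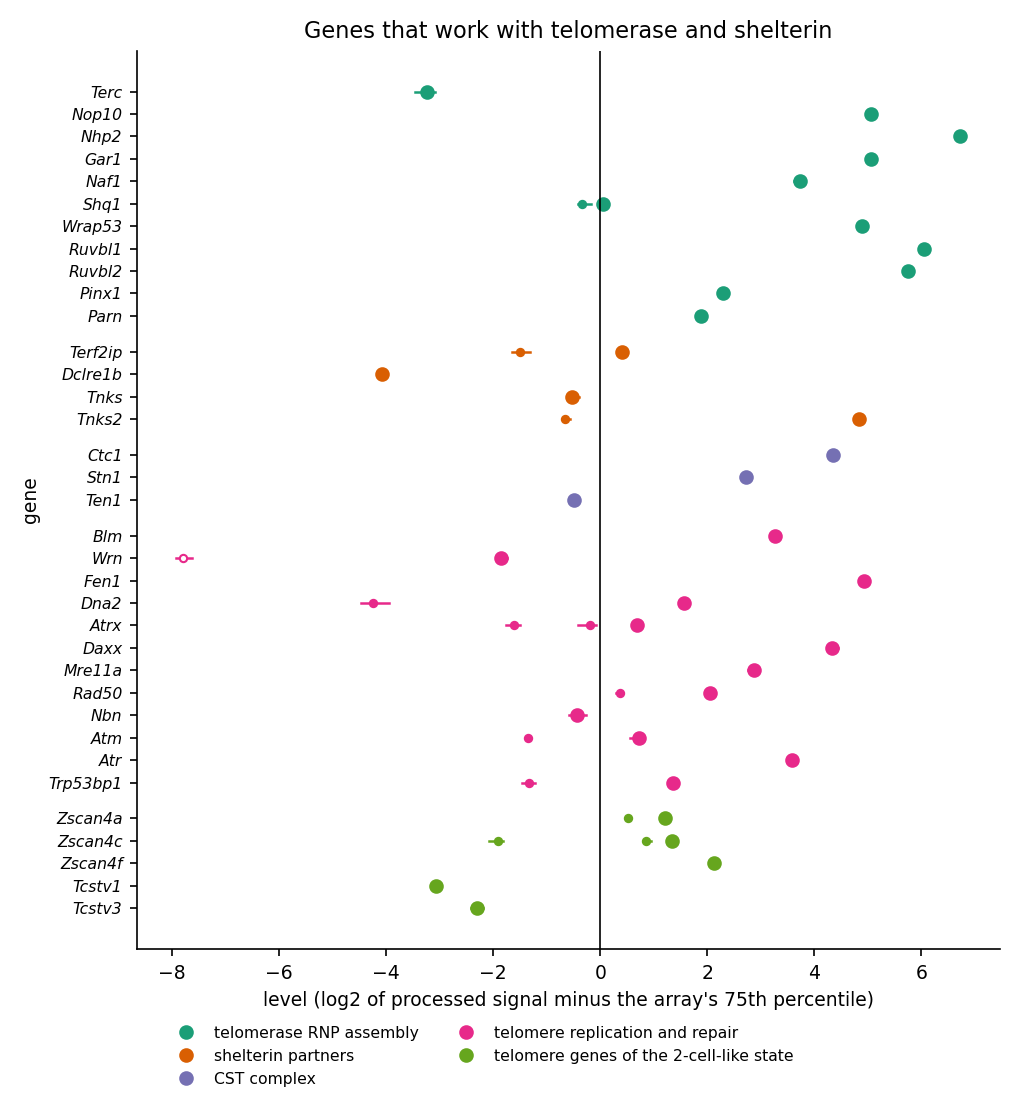
Mean level (horizontal axis, log2 of processed signal minus the array's 75th percentile) of each probe of the 35 listed genes on the array, with lines from the lowest to the highest array and colours by list. Large points represent the gene, small points are its other probes, and the open point is the Wrn probe not well above background.

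Over the 5 lists, 35 of 35 genes on the array were detected, beside the 72.7% over all named genes, and 0 had levels over 1 log2 unit apart. Their median SD was 0.056.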

How the data were processed

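Total RNA of 3 PD0325901-treated samples was labelled with Cy3 and hybridised to 1-colour Agilent arrays. The authors extracted spots with Agilent Feature Extraction (10.7 per the labels, 10.7.3.1 per the file headers). The deposited processed signal is an intensity after the software's background subtraction. The deposited value table holds log2 values of the same arrays, normalized by the authors in a way not given in the sources used here.

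Outlier-flagged spots were left out and spots of 1 probe averaged on the log2 scale. Each array's 75th percentile over spots that were not controls was subtracted. The probe with the highest mean level stood for its gene, and all probes of the 10 genes are given. Of the listed pathway genes, values are given for those not detected, Terc, Terf2ip and, in each list, the gene whose representing probe had the largest SD. Atm, Dclre1b and the second Wrn probe were added after their values were seen. So were the SDs of Pou5f1 and of other probes of Dna2, Atrx and Zscan4c. The 10 genes and all lists were chosen with earlier results of these data known. Probes printed in 10 spots were compared between arrays with limma 3.58.1 in R 4.3.3 (lmFit and eBayes, Benjamini-Hochberg over 284 probes, threshold 0.05), after testing on simulated data; p-values rest on spots, which are technical repeats. Other steps used Python 3.11.15, pandas 2.3.3, numpy 2.4.6 and matplotlib 3.10.9. A block of the array (8 by 6 blocks) was marked where replicate 2 had at least 10 non-uniform spots, a limit set after the counts were seen.

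Alternatives were quantile normalization, scaling by medians, percentiles over detected probes or over probes, normexp with offset 50 on the raw median signals, the deposited table, the mean of a gene's probes, other detection rules and leaving out each array. The number of arrays, 3 of 1 group, limits precision. Promoter sequences are from RefSeq, GRCm38.p6.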

Additional observations from a re-analysis of the deposited data

How the results depend on the processing

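Detection of all 10 genes held under every detection rule and without each array. The pathway count of 35 fell to 34 when every probe of a gene had to be detected. The median SD of the 10 genes ran from 0.030 to 0.060 over other scalings and probe rules and from 0.029 to 0.049 without each array in turn, and no alternative gave a range over 1 log2 unit. Replicate 2 lay farthest for 5 genes with median scaling and for 1 gene with the mean of all probes, against 3. The Pot1b F test passed for 1 of 1 probe with median scaling (limma adjusted p = 0.0136) and for 0 otherwise, with limma adjusted p of 0.070 to 0.45 without each array, over which 24 to 79 of the 284 probes passed. Percentiles over probes or without spots in marked blocks were added after seeing the data and changed no call. Median scaling raised all levels by 3.80, percentiles over detected probes changed them by −1.85, and those over all probes by 0.17. Normexp moved 9 of the 10 levels by more than their SD, Pot1b from −4.64 to −2.95, and the mean of 3 probes gave Terf2 a level of 0.71. No paired analysis was possible because there is only 1 group. Signals near background, as for Pot1b, limit what a difference between arrays can show.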
